A study of Rattus norvegicus with 24 samples.

Results

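Cilium assembly and centrosome genes were taken by their symbols: Ift (intraflagellar transport), Bbs (Bardet-Biedl syndrome), Cfap (cilia and flagella associated), Rsph (radial spoke head), Spag (sperm associated antigen) or Cep (centrosomal protein), each followed by a number. Probe sets with exactly 1 gene symbol gave 85 such genes of 14217, from 120 probe sets, and the brightest probe set stood for each gene. They were 17 Ift, 7 Bbs, 19 Cfap, 5 Rsph, 6 Spag and 31 Cep genes. The Spag name is shared by unlike proteins: Spag5 is a spindle protein, Spag9 a scaffold for stress kinases and Spag11a a defensin-like epididymal secretory protein, so these 3 are not cilium genes. Cilium and centrosome names are kept here for the set as the symbols define it.

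RNA was measured on 24 Affymetrix arrays from 12 Brown Norway rats, young rats of 4 months and aged rats of 18 months. Germ cells were separated by sedimentation (STAPUT) into pachytene spermatocytes, cells in meiotic prophase, and round spermatids, the haploid cells that follow. The groups were young pachytene, aged pachytene, young round and aged round, with 6 rats in each and 1 array per rat and cell type. No treatment is named, and the stated purity of the fractions was above 83%, so each array also holds RNA of other testis cells.

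A cilium grows from a basal body, a modified centriole, and its shaft is the axoneme. Intraflagellar transport trains, built of the IFT-A and IFT-B complexes, carry building material along it, and the BBSome, a coat-like complex of Bbs proteins, links membrane cargo to the trains. In the testis the axoneme starts to grow in round spermatids and becomes the sperm tail, while the centrosomes of spermatocytes organise the meiotic spindles.

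Promoter sequence was at hand for 73 of the 85 genes (250 bases upstream of the start, RefSeq, build GRCr8). RFX factors, which drive many cilium genes, bind a palindrome called the X-box, searched here on both strands in full (the X-box) and, within it or alone, as its RFX arm GTTGCC. The sites and the sequences shown were chosen with the promoters and results in view. The X-box was found upstream of Cfap20dc, at chr15:18661312-18661561 (plus strand), and Cfap298, at chr11:43677383-43677632 (minus strand). An RFX arm alone was found upstream of Cfap90, at chr1:36678304-36678553 (minus strand), and Spag4, at chr3:165040929-165041178 (plus strand). These are set beside Cfap276, at chr2:198853879-198854128 (plus strand), and Cep295nl, at chr10:104079788-104080037 (minus strand), which had no match. Capitals mark the matches in either orientation.
Cfap20dc: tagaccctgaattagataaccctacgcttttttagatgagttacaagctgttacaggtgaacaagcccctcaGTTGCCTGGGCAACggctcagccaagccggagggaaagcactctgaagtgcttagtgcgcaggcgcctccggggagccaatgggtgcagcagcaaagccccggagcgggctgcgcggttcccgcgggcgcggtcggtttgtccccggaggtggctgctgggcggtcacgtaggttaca
Cfap298: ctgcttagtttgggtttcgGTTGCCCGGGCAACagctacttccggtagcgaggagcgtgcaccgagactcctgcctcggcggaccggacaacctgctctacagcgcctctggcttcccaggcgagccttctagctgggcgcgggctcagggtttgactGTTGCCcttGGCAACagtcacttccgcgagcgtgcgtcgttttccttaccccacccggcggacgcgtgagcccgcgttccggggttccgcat
Cfap90: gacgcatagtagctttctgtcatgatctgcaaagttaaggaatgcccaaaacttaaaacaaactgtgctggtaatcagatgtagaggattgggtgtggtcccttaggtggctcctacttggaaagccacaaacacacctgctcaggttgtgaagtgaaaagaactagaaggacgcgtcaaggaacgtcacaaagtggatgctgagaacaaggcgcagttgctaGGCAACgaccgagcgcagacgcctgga
Spag4: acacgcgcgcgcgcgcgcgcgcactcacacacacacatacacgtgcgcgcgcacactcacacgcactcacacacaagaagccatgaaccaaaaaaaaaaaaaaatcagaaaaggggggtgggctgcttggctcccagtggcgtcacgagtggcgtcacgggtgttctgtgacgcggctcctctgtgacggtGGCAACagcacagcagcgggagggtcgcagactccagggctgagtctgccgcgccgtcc
Cfap276: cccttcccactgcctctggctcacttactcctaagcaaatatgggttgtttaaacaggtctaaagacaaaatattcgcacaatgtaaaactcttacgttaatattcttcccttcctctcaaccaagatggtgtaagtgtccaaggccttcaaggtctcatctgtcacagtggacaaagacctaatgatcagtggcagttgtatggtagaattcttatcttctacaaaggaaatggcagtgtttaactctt
Cep295nl: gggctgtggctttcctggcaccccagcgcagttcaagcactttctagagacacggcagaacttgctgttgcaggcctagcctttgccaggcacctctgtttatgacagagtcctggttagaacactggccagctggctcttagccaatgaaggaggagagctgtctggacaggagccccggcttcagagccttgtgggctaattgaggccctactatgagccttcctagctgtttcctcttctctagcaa

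The RFX arm was present in 15 of 73 promoters of the set (20.5%), against 10.1% of the 11701 promoters of genes on the array and 9.9% of all 27457 promoters. The X-box was present in 2 (2.74%), against 0.359% and 0.353%. Among the 15 genes with an RFX arm 9 had higher and 5 lower levels in round spermatids, while all 73 genes split into 37 and 33. Cfap20dc was higher in round spermatids and Cfap298 lower, so the X-box stood upstream of genes that moved in opposite directions. A CREM arm (TGACGT) was in 7 promoters (9.59%, against 9.77% of array genes and 7.25% of all), and a MYB site (TAACNG) in 16 (21.9%, against 16.3% and 20%). A match is only a string of letters in this window.

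Levels are log2 signals. Those compared between cell types are on 1 scale for all 24 arrays, made by adding an offset of 84.51 to the linear pachytene values and quantile normalizing. Those compared between ages are quantile normalized within a cell type, so the same gene has different levels on the 2 scales. The gap is large for dim genes in pachytene spermatocytes. Spag11a in aged rats averaged 6.41 within the cell type and 7.45 on the shared scale. A test means limma's moderated test over all 31042 probe sets, with the Benjamini-Hochberg adjusted p threshold at 0.05. Controls absent from the sample averaged 4.28 (pachytene) and 6.83 (round spermatid) before the offset, so folds of dim genes are compressed. At most 3 of the 85 genes lay below the median of the arrays in any group, among them Spag11a, Cep152, Ift70b, Cep162 and Cep97.

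The arrays of young pachytene rats 1, 10 and 11 stood apart from the others. On the first component (73.9% of the variance of pachytene arrays) they scored -86.3, -47.1 and -44, and the other young rats -7.38 to 3.78. The array of young round rat 10 had the lowest correlations in its group (0.978 to 0.991). The age counts, and the age changes of many named genes, are also given without young rats 1, 10 and 11. On the first component of round spermatid arrays rat 10 scored 40.7 and rats 1 and 11 scored 9.81 and 18.7. The other young rats scored -4.7 to 13.9 there. Leaving these rats out also lowers the power of the test, so a gene that does not pass then need not be unchanged.
Markers bore out the cell types: 11 of 12 pachytene markers were lower in round spermatids (Ccna1 was higher), and 7 of 7 round spermatid markers were higher. Elongating spermatid markers were higher for 13 of 13. Sertoli markers were lower in round spermatids for 13 of 15 and higher for 2. Their mean level above the array median ranged from 2.5 to 3.92 in pachytene arrays and from 0.52 to 1.29 in round spermatid arrays. Of the other lists, Leydig markers were higher for 1 and lower for 4 of 7, peritubular myoid for 7 and 1 of 9, macrophage and blood for 9 and 0 of 10, spermatogonia for 5 and 1 of 8, and multiciliated epithelium for 5 and 2 of 7. Macrophage and blood markers ranged from -0.33 to 0.03 above the array median in pachytene arrays and from 0.59 to 0.88 in round spermatid arrays. Spermatogonia markers ranged from -0.03 to 0.83 and from 0.57 to 0.98. Such dim lists are compared across unlike backgrounds, so their counts need not mean more of these cells. The part of the cells of all these lists in the results was not tested. In such bulk fractions fewer cells of a type and less RNA per cell cannot be told apart.

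Between the cell types the subfamilies split in different ways. Most BBSome and many IFT genes were lower in round spermatids, and most Rsph genes and the strongest Cfap genes were higher, with Cfap100 at 5.29-fold and Spag4 at 4.81-fold. Cep genes went both ways by more than 4-fold, from Cep70 (4.56-fold lower) to Cep295nl (4.42-fold higher). In all, 82 of 85 genes passed the test, with 44 higher in round spermatids and 38 higher in pachytene spermatocytes. Over all probe sets 85.1% passed, 46.9% higher and 38.2% lower, and with 1 probe set per gene 88.3%, 49.8% and 38.6%, so the count called is near the background and the directions and sizes carry the description.

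By subfamily, 7 Ift genes were higher and 10 lower in round spermatids, with a median log2 difference of -0.41. For Bbs genes the counts were 2 and 5 (median -0.52), for Cfap genes 11 and 8 (0.56), for Rsph genes 4 and 1 (0.44) and for Spag genes 3 and 3 (0.04). Cep genes numbered 17 higher and 11 lower (0.14), and Cep164, Cep44 and Cep57 did not pass. The median over all 85 genes was 0.10, and over all probe sets 0.03. With median centring, or on the deposited scale after the offset, 36 genes were higher and 42 lower, and the medians of the 85 were -0.14 and -0.16 (all probe sets 0.07 and 0.05). On those scales the Cep median turned to -0.08 and -0.10 and the Spag median to -0.14 and -0.16, while the signs of the other subfamilies held. Direction and call held under all 3 scalings for 72 genes, 36 higher and 36 lower, and the same 72 held without young rats 1, 10 and 11. The shares of all probe sets called or held under these alternatives are not given, so the counts are no measure of what is particular to these genes.
As contrasts of the fit of all 24 arrays, the young rats gave 41 higher and 36 lower (79.9% of all probe sets called, 44.9% higher and 35% lower), and the aged rats 42 and 36 (78.3%, 42.2% and 36.1%). When the arrays of each age were normalized and fitted on their own, the counts were 41 and 34 in young and 44 and 39 in aged rats. The shares of all probe sets called in those separate fits are not given.

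**Figure D1:**
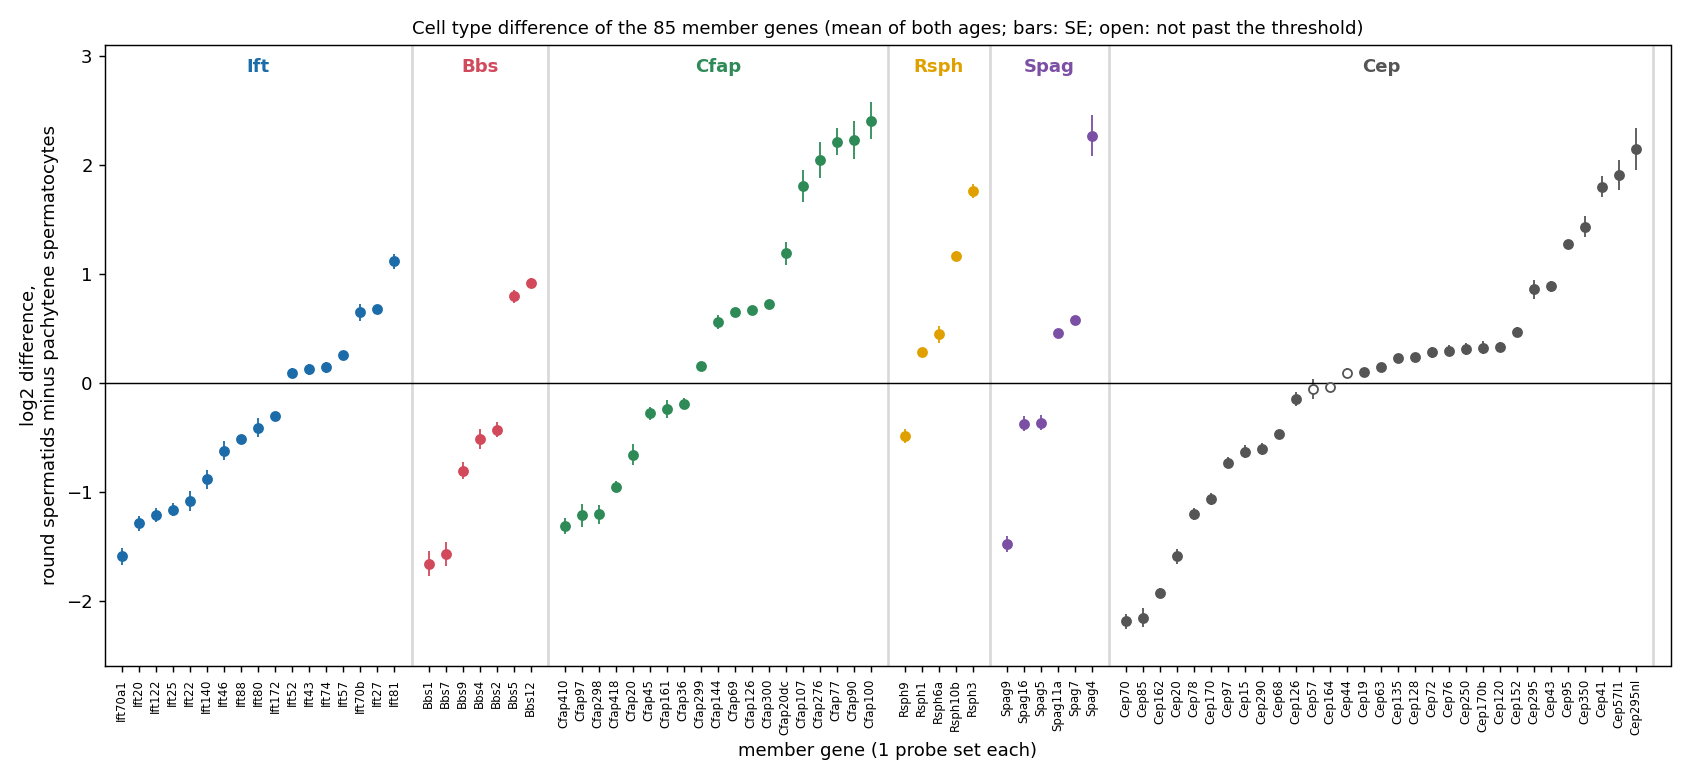
Log2 difference between round spermatids and pachytene spermatocytes (vertical axis, mean of both ages) for each of the 85 genes, ordered within the 6 subfamilies; points are estimates, bars standard errors, and open points did not pass the test. Ift and Bbs genes lie mostly below 0, the highest Cfap, Rsph and Spag genes lie above 1, and Cep genes run from -2.19 to 2.14.

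In round spermatids 6 IFT-B genes were higher and 8 lower, and 1 IFT-A gene was higher and 2 lower. Ift20, the IFT-B subunit that also sits at the Golgi, had levels of 12.15 to 13.02 (median 12.99) in pachytene spermatocytes and 11.42 to 11.69 (median 11.57) in round spermatids. The ranges did not overlap, and the log2 difference was -1.29 ± 0.07 (SE; adjusted p = 2.04e-14). Ift70a1, another IFT-B subunit, measured 11.22 to 12.15 (median 12) in pachytene spermatocytes and 9.99 to 10.49 (median 10.35) in round spermatids. Every round spermatid array was below every pachytene array, with a difference of -1.59 ± 0.08 (SE; adjusted p = 4.03e-15). Its near-identical copy Ift70b had a difference of 0.64, and the probes may not tell the copies apart, so both are uncertain.

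Ift81, which with Ift74 binds tubulin, measured 10.43 to 11.30 (median 10.58) in pachytene spermatocytes and 11.64 to 11.93 (median 11.78) in round spermatids. All round spermatid arrays were higher, by 1.12 ± 0.07 (SE; adjusted p = 3.34e-13). Another probe set of Ift81 had the opposite call (-0.27). Its partner Ift74 differed by 0.14 ± 0.05 (SE; adjusted p = 0.0155), with overlapping ranges.
Ift27, a small GTPase that pairs with Ift25, measured 10.45 to 10.64 (median 10.56) in pachytene spermatocytes and 11.15 to 11.31 (median 11.23) in round spermatids. The ranges were apart, and the difference was 0.68 ± 0.02 (SE; adjusted p = 3.73e-18). Ift25 measured 10.43 to 11.22 (median 11.09) in pachytene spermatocytes and 9.49 to 10.01 (median 9.88) in round spermatids, also with separate ranges, and differed by -1.16 ± 0.06 (SE; adjusted p = 3.33e-14). The partners of this pair therefore changed in opposite directions.
Of the other textbook members, Ift88 of the IFT-B core differed by -0.52 ± 0.04 (SE; adjusted p = 3.77e-11) and Ift172, which caps IFT-B, by -0.31 ± 0.04 (SE; adjusted p = 1.06e-07). Ift140 and Ift122 of IFT-A differed by -0.89 and -1.21, and another probe set of Ift122 had the opposite call (0.33). All 4 differences were calls.

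Among the 6 BBSome genes, 5 were lower in round spermatids and 1, Bbs5, was higher. Bbs1, the subunit contacted by the GTPase Arl6, measured 11.28 to 12.86 (median 12.64) in pachytene spermatocytes and 10.18 to 11.24 (median 10.81) in round spermatids. Round spermatid arrays were all below pachytene arrays, by -1.66 ± 0.11 (SE; adjusted p = 2.61e-12). Bbs7 measured 10.06 to 11.15 (median 10.96) in pachytene spermatocytes and 8.30 to 9.62 (median 9.43) in round spermatids, again without overlap, and differed by -1.57 ± 0.11 (SE; adjusted p = 5.17e-12). Bbs9, Bbs4 and Bbs2 differed by -0.81, -0.52 and -0.43. A dimmer probe set of Bbs4 had the opposite call (0.17).
Bbs5 measured 8.69 to 9.01 (median 8.85) in pachytene spermatocytes and 9.25 to 10.22 (median 9.65) in round spermatids, with all round spermatid arrays higher and a difference of 0.79 ± 0.06 (SE; adjusted p = 6.43e-12). Bbs12, a chaperonin-like factor that helps to assemble the BBSome and is no subunit of it, measured 8.67 to 9.68 (median 9.28) in pachytene spermatocytes and 9.98 to 10.31 (median 10.19) in round spermatids. It was higher in every round spermatid array, by 0.91 ± 0.05 (SE; adjusted p = 1.46e-14).

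Axoneme genes of the Cfap name gave the largest increases. Cfap100, linked to inner dynein arms, measured 8 to 10.12 (median 8.22) in pachytene spermatocytes and 10.41 to 11.43 (median 10.85) in round spermatids. The ranges did not overlap and the difference was 2.40 ± 0.17 (SE; adjusted p = 4.58e-12). Cfap90 measured 10.61 to 13.23 (median 11.30) in pachytene spermatocytes and 13.64 to 13.89 (median 13.77) in round spermatids. It was higher in all round spermatid arrays, by 2.23 ± 0.17 (SE; adjusted p = 2.35e-11).
Of 7 genes grouped by hand as coding for proteins inside the axonemal microtubules 4 were higher and 3 lower. Cfap90 (above) and Cfap144, at 0.56, which code for such proteins too, were not in that group and were both higher. Cfap77, Cfap276, Cfap107 and Cfap126 differed by 2.21, 2.04, 1.80 and 0.66. Cfap20, Cfap45 and Cfap161 differed by -0.66, -0.28 and -0.24. Proteins of 1 structure thus came from genes with calls in both directions. Cfap161 did not pass with median centring (-0.15, adjusted p = 0.203) and the other 6 held their calls.
Cfap410, a partner of the kinase Nek1, measured 8.92 to 9.91 (median 9.78) in pachytene spermatocytes and 7.99 to 8.58 (median 8.42) in round spermatids. Round spermatid arrays were all lower, by -1.32 ± 0.07 (SE; adjusted p = 6.15e-14). Cfap97 measured 12.80 to 13.88 (median 13.78) in pachytene spermatocytes and 11.42 to 13.06 (median 12.50) in round spermatids, with some overlap, and differed by -1.22 ± 0.11 (SE; adjusted p = 2.73e-10). Cfap298, which takes part in dynein arm assembly, differed by -1.21 ± 0.09 (SE; adjusted p = 8.01e-12).

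Radial spokes, which signal from the central pair to the dynein arms, had 4 of 5 genes higher in round spermatids, and 3 under the other scalings, where Rsph1 turned lower. Rsph3, a stalk protein, measured 8.80 to 9.39 (median 8.96) in pachytene spermatocytes and 10.61 to 11.14 (median 10.71) in round spermatids. All round spermatid arrays were higher, by 1.76 ± 0.06 (SE; adjusted p = 9.45e-18). Rsph10b measured 9.96 to 10.42 (median 10.30) in pachytene spermatocytes and 11.18 to 11.61 (median 11.39) in round spermatids, also without overlap, and differed by 1.16 ± 0.05 (SE; adjusted p = 3.19e-16). A dimmer probe set of Rsph10b, at 0.01 (adjusted p = 0.903), did not pass. The head protein genes Rsph6a and Rsph1 differed by 0.44 and 0.28, and Rsph1 by -0.14 with median centring. Rsph9, a further head protein, measured 11.96 to 12.97 (median 12.77) in pachytene spermatocytes and 12 to 12.33 (median 12.21) in round spermatids. Its ranges overlapped and it was lower, by -0.49 ± 0.07 (SE; adjusted p = 4.7e-07).
Among Spag genes, Spag4, a SUN-domain protein of the nuclear envelope, measured 10.39 to 13.16 (median 11.09) in pachytene spermatocytes and 13.35 to 13.84 (median 13.58) in round spermatids. Every round spermatid array was higher, by 2.27 ± 0.19 (SE; adjusted p = 6.95e-11). Spag7 differed by 0.58 ± 0.03 (SE; adjusted p = 1.8e-14), with levels of 9.31 to 9.59 (median 9.43) in pachytene spermatocytes and 9.79 to 10.09 (median 10.03) in round spermatids and no overlap, but did not pass with median centring (0.03, adjusted p = 0.661).
Spag9 measured 9.98 to 10.37 (median 10.27) in pachytene spermatocytes and 8.35 to 9.21 (median 8.77) in round spermatids, with all round spermatid arrays lower, by -1.48 ± 0.07 (SE; adjusted p = 9.5e-15). Spag16, a central pair protein, measured 12.18 to 12.92 (median 12.79) in pachytene spermatocytes and 11.88 to 12.49 (median 12.40) in round spermatids, with overlap, and differed by -0.38 ± 0.07 (SE; adjusted p = 2.12e-05). A dim second probe set of Spag16 had the opposite call (0.23). The spindle gene Spag5 differed by -0.37.

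**Figure D2:**
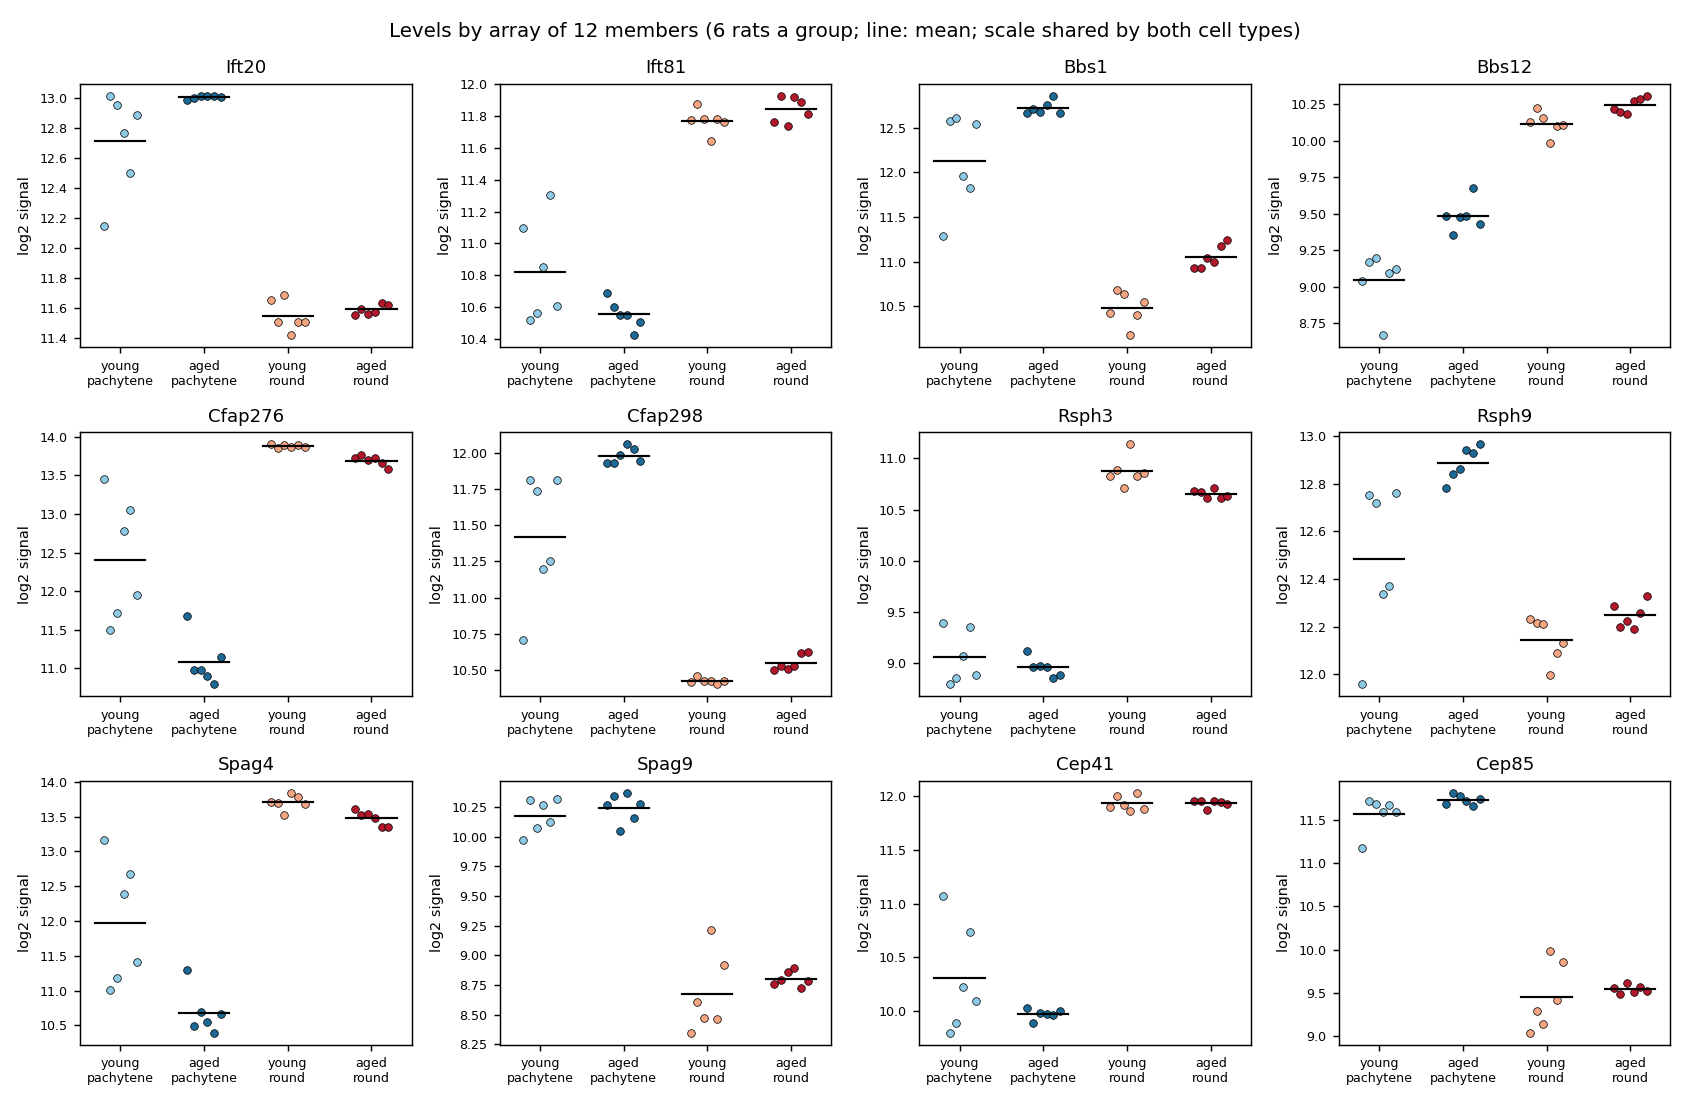
Log2 signal (vertical axes, each with its own range) of 12 genes in the 4 groups, 1 point per rat and a line at the group mean of 6 rats. Ift81, Bbs12, Cfap276, Rsph3, Spag4 and Cep41 are higher in both round spermatid groups and Ift20, Bbs1, Cfap298, Rsph9, Spag9 and Cep85 lower, and young pachytene arrays have the widest spread in most panels.

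Cep genes were the widest in range. Cep70, a centrosome protein that binds gamma-tubulin, measured 11.10 to 11.83 (median 11.53) in pachytene spermatocytes and 8.90 to 9.51 (median 9.35) in round spermatids. Round spermatid arrays were all lower, by -2.19 ± 0.07 (SE; adjusted p = 1.72e-18). Cep85 measured 11.18 to 11.81 (median 11.68) in pachytene spermatocytes and 9.04 to 9.98 (median 9.52) in round spermatids, likewise without overlap, and differed by -2.15 ± 0.09 (SE; adjusted p = 1.1e-16).
Cep295nl measured 10.94 to 13.70 (median 11.52) in pachytene spermatocytes and 13.79 to 14.10 (median 13.94) in round spermatids. Its lowest round spermatid array was just above its highest pachytene array, and the difference was 2.14 ± 0.19 (SE; adjusted p = 3.72e-10). Cep57l1, which helps to hold centrioles together, measured 10.50 to 12.23 (median 10.72) in pachytene spermatocytes and 12.53 to 13.33 (median 12.77) in round spermatids, without overlap, and differed by 1.90 ± 0.14 (SE; adjusted p = 5.79e-12). A dimmer probe set of Cep57l1, at 0.11 (adjusted p = 0.1), did not pass. Cep41, needed for tubulin glutamylation, differed by 1.80 ± 0.10 (SE; adjusted p = 4.27e-14), but 2 dimmer probe sets of it had values of -0.15 and -0.65.

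Partners within the centrosome were read together from textbook complexes. Cep97, which caps centrioles with the protein of Ccp110, differed by -0.73 ± 0.05 (SE; adjusted p = 2.22e-12), and Ccp110 itself by -3.12. Cep152 and Cep63, which bring the duplication kinase Plk4 to the centriole, differed by 0.46 and 0.14, and Plk4 by -1.80. Cep19, Cep43 and Cep350, which act in a chain at the base of the cilium, differed by 0.10, 0.88 and 1.43. Second probe sets of Cep43 and Cep350 had values of -0.62 and -0.73, against the brightest ones.
Cep290, of the transition zone, and Cep162, which helps to build it, differed by -0.61 and -1.93. Cep164, of the distal appendages, differed by -0.04 ± 0.04 (SE; adjusted p = 0.298) and did not pass. Its dimmer probe sets did pass as higher in round spermatids, at 0.26 and 0.13. Cep250 and Cep68, of the linker between centrioles, differed by 0.31 and -0.47, on opposite sides of 0, but with median centring Cep250 turned to -0.25.

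Probe sets of 1 gene were not always alike. Of the 24 genes with several probe sets, 9 had calls in both directions between cell types (Bbs4, Cep350, Cep41, Cep43, Cfap36, Cfap69, Ift122, Ift81 and Spag16). Of all 4525 genes with several probe sets, 1456 (32.2%) did. For age the numbers were 0 of the 24 genes in pachytene spermatocytes and 2 in round spermatids (Cep350 and Cep57l1), against 3.6% and 1.3% of all such genes.

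Pathway genes without a numbered name were counted from lists chosen from textbook knowledge. Of all genes, with 1 probe set each, 88.3% were called, 49.8% higher and 38.6% lower. A count near these shares is not particular to a list. Of 13 further IFT and IFT motor genes 3 were higher and 10 lower in round spermatids, such as the retrograde motor gene Dync2h1 (-1.23) and the adaptor of the anterograde motor Kifap3 (1.71). Of 8 BBSome partners 1 was higher and 5 lower, with the subunit gene Ttc8 at -2.35. Of 16 transition zone genes 5 were higher (Nphp4, 1.40) and 10 lower (Iqcb1, -1.83).
Of 33 centriole genes 10 were higher and 20 lower, with Deup1, which builds many centrioles in multiciliated cells, at 2.40. Of 26 axoneme genes 18 were higher and 6 lower, with the tektin gene Tekt5 at 2.46 and Zmynd10, for dynein assembly, at -1.89. Of 15 regulators of ciliogenesis 10 were higher and 5 lower. Rfx1 differed by 2.20, Rfx2 by 0.17 and the meiotic factor Mybl1 by -3.07. The median log2 difference was -0.46 for the IFT list, -0.42 for BBSome partners, -0.16 for the transition zone, -0.13 for centriole genes and 0.28 for axoneme genes. With median centring 11 axoneme genes were higher and 9 lower and 7 regulators were higher and 7 lower, while the counts of the IFT and centriole lists were the same.

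With age, in pachytene spermatocytes, Cfap276, Cep295nl, Spag4, Cfap90 and Cfap100 fell by more than 2-fold, and all 5 were higher in round spermatids than in pachytene spermatocytes. Without young rats 1, 10 and 11 each of these changes was less than 2-fold and Cfap100 did not pass. More genes rose by less, among them Ift22, Cep250, Rsph6a, Bbs4 and Bbs1. Of these Rsph6a and Cep250 were also higher in round spermatids (Cep250 not with median centring), and Ift22, Bbs4 and Bbs1 were lower there. Bbs12, which rose too, was higher in round spermatids. In all 27 of 85 genes rose and 10 fell, against 37.5% of all probe sets called (22.1% higher, 15.4% lower) and, with 1 probe set per gene, 44.5% (25.5% and 19%). These counts depended on scaling. The shares of all probe sets called under the settings that follow are not given. The counts are thus no measure of what is particular to these genes. Median centring gave 50 higher and 8 lower, the deposited scale 15 and 27, and the median of all probe sets moved from 0.05 to 0.13 and -0.24. Without young rats 1, 10 and 11 the counts were 15 and 4. Under all 3 scalings 15 genes rose and 7 fell, and of these 10 and 4 also held without the 3 rats.

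By subfamily 5 Ift genes rose and 0 fell, with a median log2 change of 0.11. The counts were 4 and 0 for Bbs (median 0.29), 4 and 6 for Cfap (-0.06), 2 and 0 for Rsph (0.16), 2 and 1 for Spag (0.04) and 10 and 3 for Cep (0.11). On the deposited scale 3 Ift genes and 1 Bbs gene were called lower, and Cep genes numbered 1 higher and 11 lower. With median centring no Ift or Bbs gene was called lower.

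Cfap276, a protein inside the axonemal microtubules, measured 11.55 to 13.40 (median 12.32) in young and 10.92 to 11.71 (median 11.09) in aged pachytene spermatocytes. Aged rat 2 overlapped the young range, and the change was -1.21 ± 0.29 (SE; adjusted p = 0.0068). It fell under every scaling, and without young rats 1, 10 and 11 by -0.58 (adjusted p = 0.0174).
Spag4 measured 11.11 to 13.08 (median 11.91) in young and 10.55 to 11.37 (median 10.75) in aged pachytene spermatocytes. Only aged rat 2 reached the young range. The change was -1.17 ± 0.31 (SE; adjusted p = 0.0112), and -0.48 (adjusted p = 0.0417) without the 3 rats.
Cfap90 measured 11.25 to 13.16 (median 12.08) in young and 10.75 to 11.55 (median 10.99) in aged pachytene spermatocytes, again with overlap through aged rat 2, and changed by -1.11 ± 0.29 (SE; adjusted p = 0.0106). Cep295nl measured 11.47 to 13.63 (median 12.30) in young and 11.05 to 11.73 (median 11.19) in aged pachytene spermatocytes and changed by -1.17 ± 0.33 (SE; adjusted p = 0.0153). Without the 3 rats the changes of Cfap90 and Cep295nl were -0.49 (adjusted p = 0.0466) and -0.42 (adjusted p = 0.0455). Cfap100 and Cfap107 fell by 1.10 and 0.91, and without the 3 rats their values of -0.27 (adjusted p = 0.144) and -0.24 (adjusted p = 0.176) did not pass.

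Many markers of later germ cells also fell. Of 13 elongating spermatid markers 12 fell with age in pachytene arrays and 0 rose (6 and 1 with median centring); the mean level of the list above the array median ranged from 6.28 to 7.43 in young and from 5.85 to 6.40 in aged arrays. In the round spermatid list 4 of 7 markers fell and 0 rose. With median centring 4 fell and 3 rose, and without young rats 1, 10 and 11 the numbers were 3 and 1. The list ranged from 4.15 to 5.49 in young and from 3.90 to 4.35 in aged arrays. Its defining gene Acrv1 fell by 1.22, while Acr, at 0.05, did not pass. In young rats 1, 10 and 11 the elongating spermatid list stood at 7.43, 7.03 and 7.08, and in the other young rats at 6.28, 6.35 and 6.47. Sertoli markers fell too, 13 of 15, Wt1 and Inha among them, from a range of 3.25 to 3.92 in young to 2.5 to 2.84 in aged arrays. Of 8 spermatogonia markers 3 fell and 0 rose, and of 12 pachytene markers 3 rose and 1 fell. The part of these cells in the age changes was not tested.

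**Figure D3:**
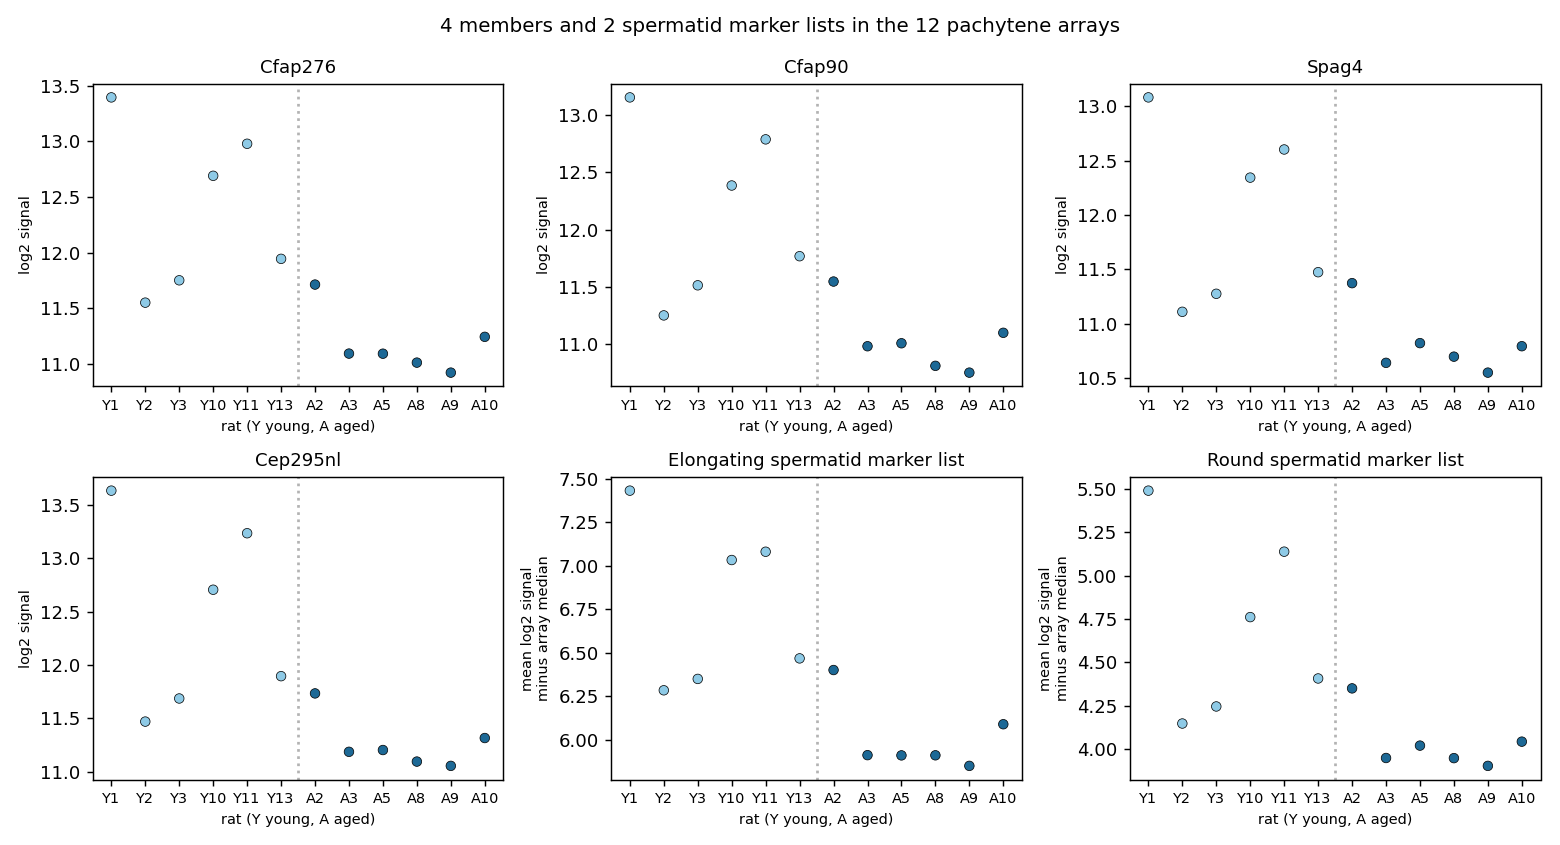
Log2 signal of Cfap276, Cfap90, Spag4 and Cep295nl, and the mean log2 level above the array median of the elongating and round spermatid marker lists, in each of the 12 pachytene arrays (horizontal axis, Y young and A aged rats with their numbers). In all 6 panels young rats 1, 10 and 11 are highest, and aged rat 2 is the highest aged array.

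Of the genes that rose, Ift22, a GTPase of IFT-B, measured 7.95 to 9.47 (median 8.97) in young and 9.55 to 9.77 (median 9.69) in aged pachytene spermatocytes. All aged arrays were above all young ones, and the change was 0.80 ± 0.22 (SE; adjusted p = 0.0142). Without young rats 1, 10 and 11 it was 0.29 (adjusted p = 0.00435).
Cep250, the linker protein C-Nap1, measured 8.21 to 8.94 (median 8.73) in young and 9.21 to 9.43 (median 9.28) in aged pachytene spermatocytes. The ranges were apart, with a change of 0.65 ± 0.12 (SE; adjusted p = 0.00222), or 0.40 (adjusted p = 0.000694) without the 3 rats. Rsph6a, the spoke head protein of sperm, measured 10.43 to 11.20 (median 10.92) in young and 11.31 to 11.67 (median 11.45) in aged pachytene spermatocytes, without overlap, and changed by 0.59 ± 0.13 (SE; adjusted p = 0.00535), or 0.30 (adjusted p = 0.0111) without the 3 rats.
Cfap45 measured 10.80 to 11.44 (median 11.33) in young and 11.52 to 11.71 (median 11.65) in aged pachytene spermatocytes, without overlap, and changed by 0.41 ± 0.10 (SE; adjusted p = 0.00836). Spag5 measured 10.76 to 11.36 (median 11.17) in young and 11.46 to 11.62 (median 11.54) in aged pachytene spermatocytes, also without overlap, and changed by 0.42 ± 0.10 (SE; adjusted p = 0.00606). Without the 3 rats Cfap45 and Spag5 changed by 0.22 (adjusted p = 0.0106) and 0.22 (adjusted p = 0.00883). These 5 genes rose under all 3 scalings and without the 3 rats, as did Ift140, Ift46, Bbs4, Cfap161 and Cfap298. For Ift140, Ift46, Cfap161 and Cfap298 the change was 0.42, 0.41, 0.39 and 0.49, and without the 3 rats 0.18, 0.15, 0.19 and 0.17.

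Bbs12 measured 8.63 to 9.31 (median 9.20) in young and 9.49 to 9.85 (median 9.63) in aged pachytene spermatocytes. Every aged array was higher, by 0.51 ± 0.11 (SE; adjusted p = 0.00334), but on the deposited scale the change of 0.21 (adjusted p = 0.0939) did not pass. Bbs4 changed by 0.59 ± 0.14 (SE; adjusted p = 0.0067) and Bbs1 by 0.53 ± 0.18 (SE; adjusted p = 0.0306); without the 3 rats Bbs4 changed by 0.28 (adjusted p = 0.00258) and Bbs1, at 0.14 (adjusted p = 0.0908), did not pass. Cep290 measured 9.74 to 10.17 (median 9.86) in young and 9.46 to 9.75 (median 9.64) in aged pachytene spermatocytes, with overlap, and changed by -0.28 ± 0.08 (SE; adjusted p = 0.0137). With median centring (-0.16, adjusted p = 0.171) and without the 3 rats (-0.17, adjusted p = 0.0811) it did not pass. Cep152 fell by 0.25 but, at -0.15 (adjusted p = 0.158), did not pass without the 3 rats. Ift88, Ift20, Ift172, Ift27, Cfap20, Rsph1, Rsph3, Spag9 and Cep164 did not pass, with values between -0.11 and 0.29. Dimmer probe sets of Cep164 did rise (0.32 and 0.33), as did a dim probe set of Spag9 (0.35).

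The pathway lists stand beside a share of all genes called, with 1 probe set each, of 44.5% (25.5% higher, 19% lower) in pachytene spermatocytes. A count near these shares is not particular to a list. Among the lists 2 of 13 IFT genes rose and 3 fell in aged pachytene spermatocytes, with Kif3a, of the anterograde motor, at 0.64. For BBSome partners 2 of 8 rose and 0 fell (Rab8a, 0.65), and for the transition zone 6 of 16 rose and 2 fell (Ofd1, -0.54). Centriole genes numbered 12 risen and 5 fallen of 33, with Cetn2 at -0.94 and Haus7 at -0.92. Axoneme genes numbered 11 and 3 of 26, where Tekt5 fell by 1.21 and Efhc2 by 0.95. Without young rats 1, 10 and 11 Efhc2, at -0.40 (adjusted p = 0.0813), did not pass and Tekt5, at -0.47 (adjusted p = 0.0258), did. On the deposited scale the centriole list numbered 7 risen and 17 fallen, the transition zone list 1 and 7 and the axoneme list 5 and 5. Regulators numbered 5 and 2 of 15, where the values of Rfx1 and Foxj1, both past the threshold, were -0.87 and -0.83; without the 3 rats, at -0.29 (adjusted p = 0.178) and -0.25 (adjusted p = 0.199), neither passed.

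In round spermatids 4 of 6 BBSome genes and 6 of 17 Ift genes rose with age. Cfap97 rose most (log2 0.88), followed by Bbs1 (0.64), and Cep295 fell most (-0.64). In all 20 genes rose and 15 fell, against 17.1% of all probe sets called (8.6% higher, 8.54% lower) and 24.9% (12.4% and 12.5%) when 1 probe set stands for each gene. Median centring gave 8 higher and 10 lower, and the deposited scale 52 and 4, where the median of all probe sets moved from 0.00 to 0.14. Without young rats 1, 10 and 11 there were 7 and 6. Here too the shares of all probe sets called under these settings are not given. Under all 3 scalings 7 genes rose and 4 fell. Of these Ift140, Ift46, Bbs1, Cfap97 and Cep164 rose, and Cfap276 and Cep295 fell, without the 3 rats too.

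By subfamily 6 Ift genes rose and 1 fell (median log2 change 0.14), 5 Bbs genes rose and 1 fell (0.32), and 5 Cfap genes rose and 5 fell (0.03). For Rsph the counts were 1 and 1 (0.08), for Spag 1 and 1 (0.10) and for Cep 2 and 6 (0.00). The median over the 85 genes was 0.08, and over all probe sets 0.00. With median centring 3 Ift genes and 1 Bbs gene rose, 1 of each fell, and 3 Cep genes rose and 5 fell. On the deposited scale 17 Cep genes were higher and 2 lower.

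Cfap97 measured 11.32 to 12.47 (median 12.09) in young and 12.61 to 13.12 (median 12.86) in aged round spermatids. All aged arrays were above all young ones, and the change was 0.88 ± 0.16 (SE; adjusted p = 0.00363). Without the 3 rats it was 0.58 (adjusted p = 0.0152). Bbs1 measured 9.92 to 10.48 (median 10.27) in young and 10.76 to 11.11 (median 10.86) in aged round spermatids, with no overlap and a change of 0.64 ± 0.09 (SE; adjusted p = 0.0018). A second probe set of Bbs1 also rose, by 0.45.
Ift46, which brings outer dynein arms into the cilium, measured 11.28 to 12.13 (median 11.70) in young and 12.14 to 12.43 (median 12.26) in aged round spermatids. Every aged array was higher, by 0.56 ± 0.11 (SE; adjusted p = 0.00471). Cep164 measured 11.93 to 12.28 (median 12.24) in young and 12.41 to 12.48 (median 12.43) in aged round spermatids, without overlap, and changed by 0.27 ± 0.05 (SE; adjusted p = 0.00588). A dimmer probe set of Cep164 rose too (0.15), and its dimmest, at -0.01, did not pass.
Rsph1 measured 10.32 to 10.54 (median 10.43) in young and 10.49 to 10.60 (median 10.54) in aged round spermatids and changed by 0.12 ± 0.04 (SE; adjusted p = 0.0462), with overlap. Spag5 measured 10.08 to 10.78 (median 10.59) in young and 10.75 to 11.01 (median 10.88) in aged round spermatids, with overlap, and changed by 0.36 ± 0.10 (SE; adjusted p = 0.0214). Neither passed with median centring (0.24 (adjusted p = 0.167) and 0.47 (adjusted p = 0.0875)).

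Cep295, which turns new centrioles into centrosomes, measured 10.13 to 11.28 (median 10.48) in young and 9.69 to 10.05 (median 9.92) in aged round spermatids. All aged arrays were lower, by -0.64 ± 0.15 (SE; adjusted p = 0.0121). Bbs5 measured 9.37 to 9.96 (median 9.49) in young and 8.95 to 9.34 (median 9.18) in aged round spermatids, again with separate ranges, and changed by -0.42 ± 0.10 (SE; adjusted p = 0.00987), while on the deposited scale, at -0.19 (adjusted p = 0.0737), it did not pass. Cfap20dc measured 12.71 to 12.80 (median 12.73) in young and 12.47 to 12.63 (median 12.57) in aged round spermatids, without overlap, and changed by -0.18 ± 0.03 (SE; adjusted p = 0.00292).
Spag4 measured 13.59 to 13.88 (median 13.76) in young and 13.41 to 13.67 (median 13.55) in aged round spermatids, with overlap. It changed by -0.23 ± 0.06 (SE; adjusted p = 0.0128) and fell under all scalings, but without the 3 rats, at -0.16 (adjusted p = 0.175), it did not pass. Cfap276 changed by -0.18 ± 0.03 (SE; adjusted p = 0.00324), with every aged array below every young one. Neither Cfap20dc (-0.07, adjusted p = 0.431) nor Cep76 (-0.09, adjusted p = 0.263) passed on the deposited scale.
Without the 3 rats Bbs5, Ift172, Spag5 and Rsph1, at -0.29 (adjusted p = 0.0621), -0.15 (adjusted p = 0.151), 0.18 (adjusted p = 0.0806) and 0.08 (adjusted p = 0.349), did not pass, and Ift46, Ift140 and Cep295 passed at 0.35 (adjusted p = 0.0287), 0.28 (adjusted p = 0.0236) and -0.41 (adjusted p = 0.0308).
Rsph3 measured 10.52 to 10.99 (median 10.66) in young and 10.40 to 10.51 (median 10.45) in aged round spermatids, without overlap, and changed by -0.25 ± 0.06 (SE; adjusted p = 0.0136), but turned to 0.01 on the deposited scale. Cep95 measured 10.35 to 10.61 (median 10.52) in young and 10.13 to 10.34 (median 10.26) in aged round spermatids, without overlap, and changed by -0.26 ± 0.05 (SE; adjusted p = 0.00292), and Ift172 measured 11.65 to 12.18 (median 11.85) in young and 11.60 to 11.71 (median 11.61) in aged round spermatids, with overlap, and changed by -0.24 ± 0.07 (SE; adjusted p = 0.0369). Neither passed on the deposited scale (-0.01 (adjusted p = 0.911) and -0.07 (adjusted p = 0.294)).
Of 13 elongating spermatid markers 3 fell with age here, and 13 with median centring; the list ranged from 7 to 7.12 in young and from 6.93 to 7.02 in aged arrays. Of 12 pachytene markers 5 rose and 0 fell, and that list ranged from 3.29 to 3.59 in young and from 3.60 to 3.76 in aged arrays, without overlap. Without the 3 rats 1 of the 12 rose. Among the risen genes named here Cfap97, Bbs1, Ift46, Ift140 and Spag5 were higher in pachytene spermatocytes than in round spermatids. The brightest probe set of Cep164 did not differ between cell types (-0.04). Rsph1 was higher in round spermatids with quantile normalization and lower with median centring. The cell type difference was not counted over all risen genes. Of 15 Sertoli markers 7 fell and 0 rose, with ranges from 0.87 to 1.29 and from 0.52 to 0.84, and of 8 spermatogonia markers 3 fell and 0 rose. The part of these cells in the age changes of round spermatids was not tested.

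Pathway lists in aged round spermatids gave 3 of 13 IFT genes risen and 1 fallen (Kifap3, -0.32). They gave 4 of 8 BBSome partners risen and 0 fallen (Rab8a, 0.58), and 5 of 16 transition zone genes risen and 0 fallen. The share of all genes called here, with 1 probe set each, was 24.9% (12.4% higher, 12.5% lower). Centriole genes numbered 8 risen and 5 fallen of 33, with Cenpj, which sets centriole length, at -0.46. Axoneme genes numbered 8 and 4 of 26, with Zmynd10 at 0.87 and Tekt5 at -0.51. On the deposited scale centriole genes numbered 14 and 0, axoneme genes 15 and 1 and transition zone genes 12 and 0. With median centring these lists numbered 3 and 3, 5 and 2, and 3 and 0, and without young rats 1, 10 and 11 they numbered 6 and 1, 2 and 0, and 1 and 0. Regulators numbered 4 and 1 of 15, with Mybl1 at 0.77. Without the 3 rats Tekt5 (adjusted p = 0.0587) and Mybl1 (adjusted p = 0.054) did not pass, nor did Cenpj on the deposited scale (adjusted p = 0.0615).

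**Figure D4:**
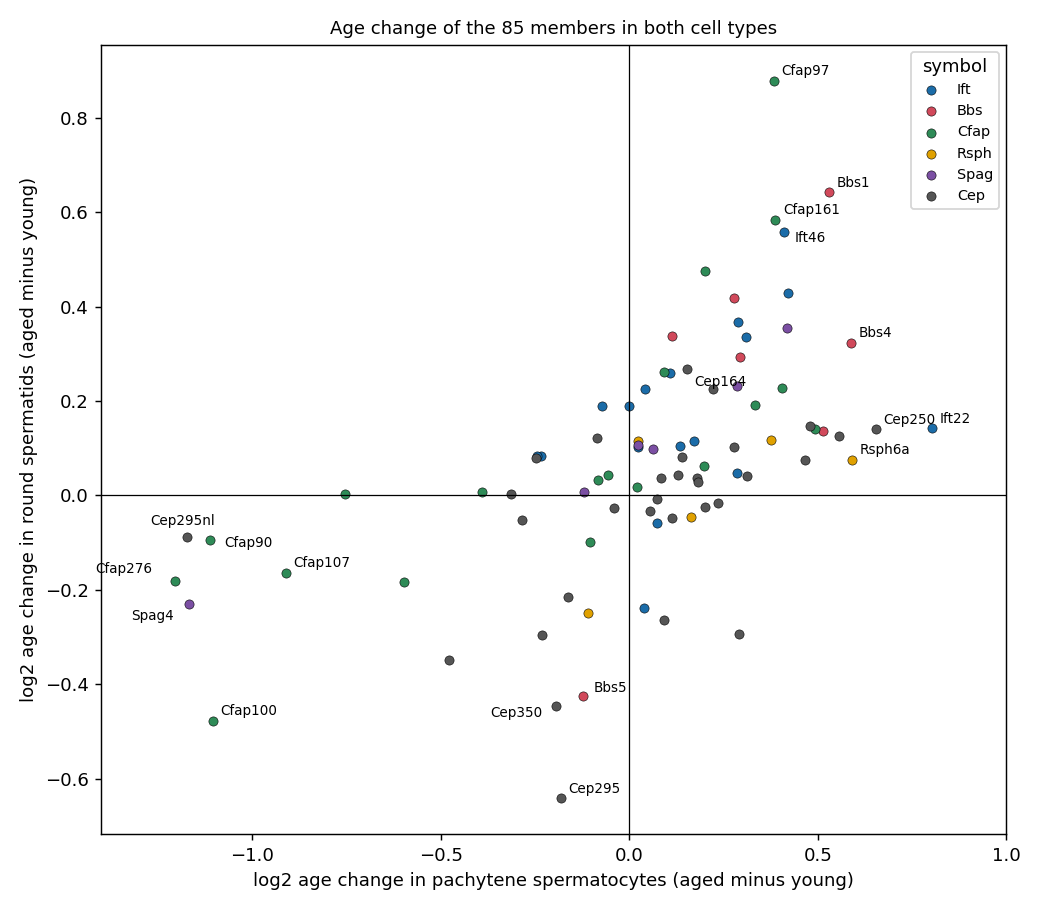
Log2 change with age (aged minus young) of the 85 genes in pachytene spermatocytes (horizontal axis) and round spermatids (vertical axis), coloured by subfamily. Cfap276, Cep295nl, Spag4, Cfap90 and Cfap100 lie below -1 on the horizontal axis, and Cfap97, at 0.88, is highest on the vertical axis.

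Whether the age change itself differed between cell types was tested on the scale of all 24 arrays. The change in round spermatids minus that in pachytene spermatocytes passed for 12 genes, 5 higher and 7 lower, against 13% of all probe sets (5.97% higher, 7.07% lower) and 16.2% with 1 probe set per gene (7.3% and 8.9%). The median was -0.02, as over all probe sets. Cep295nl, Cfap276 and Cfap90 had differences of 1.2 ± 0.39 (SE; adjusted p = 0.0428), 1.14 ± 0.33 (SE; adjusted p = 0.0268) and 1.13 ± 0.34 (SE; adjusted p = 0.0326), with the age change in pachytene spermatocytes on the negative side. Cfap144 and Ift88 had 0.39 ± 0.13 (SE; adjusted p = 0.0483) and 0.25 ± 0.08 (SE; adjusted p = 0.0483).
Rsph6a, Cep76, Cep250 and Cep95 had -0.59 ± 0.16 (SE; adjusted p = 0.0158), -0.52 ± 0.09 (SE; adjusted p = 0.00147), -0.35 ± 0.10 (SE; adjusted p = 0.0292) and -0.31 ± 0.06 (SE; adjusted p = 0.00305), and Bbs12, Ift172 and Cep19 had -0.31, -0.25 and -0.09. Cep76, a brake on centriole duplication, rose in aged pachytene spermatocytes (0.29) and fell in aged round spermatids (-0.29), but on the deposited scale its pachytene change turned to -0.09. The opposite directions also rest on its brightest probe set alone. Its dimmer probe sets changed by -0.65 and -0.16 in pachytene spermatocytes, and neither passed. Their differences between cell types (-0.34 and -0.07) did not pass either.
None of the 12 held under all 3 scalings: the deposited scale gave 45 higher and 0 lower, with the median of all probe sets at 0.27, and median centring 2 and 8. Without young rats 1, 10 and 11 there were 1 and 6. Of the 12 genes Cep76, Cep95 and Bbs12 were among these 6, and Rsph6a (-0.25), Cep250 (-0.13), Ift172 (-0.18), Cep19 (-0.06), Cfap144 (0.12) and Ift88 (0.14) did not pass. Cfap276, Cfap90 and Cep295nl, at 0.46 (adjusted p = 0.149), 0.46 (adjusted p = 0.167) and 0.42 (adjusted p = 0.172), did not pass. For the difference, too, the shares of all probe sets called under these settings are not given.

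**Figure D5:**
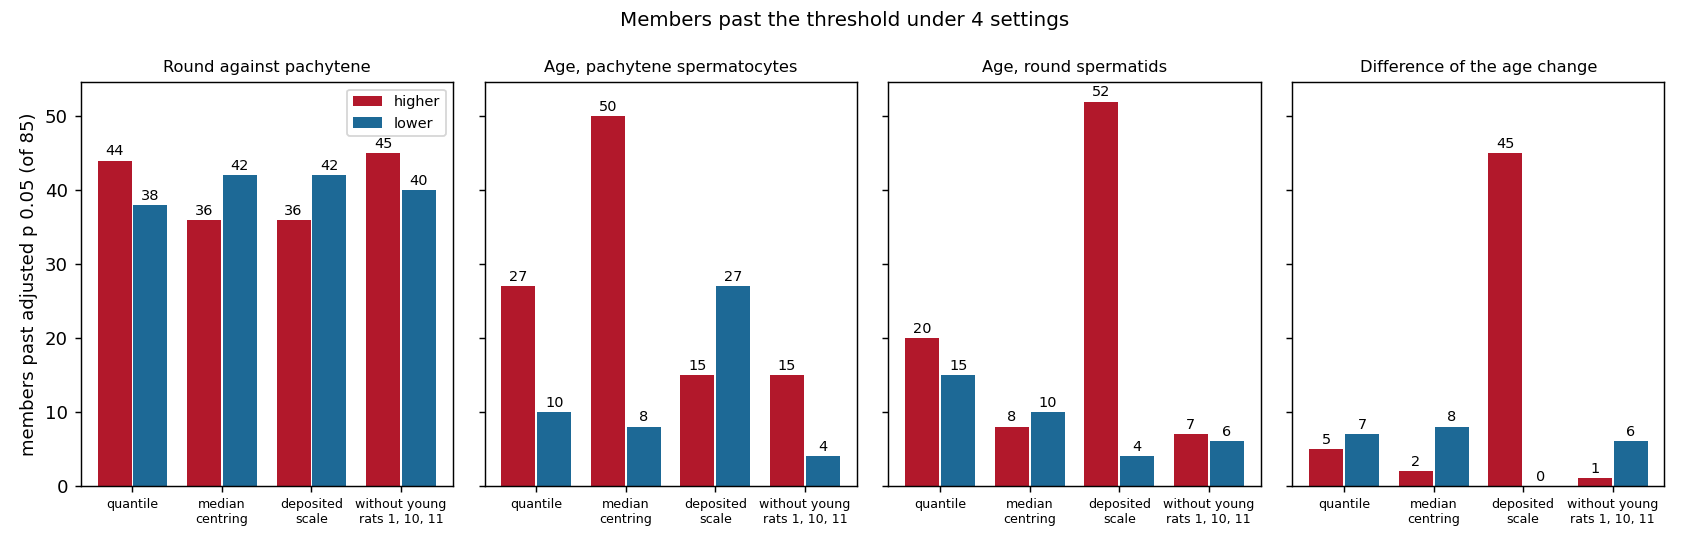
Number of the 85 genes past the threshold (vertical axis), higher in red and lower in blue, in the 4 comparisons under quantile normalization, median centring, the deposited scale, and without young rats 1, 10 and 11. The split between cell types stays between 36 and 45 in each direction, and the age splits move from 27 and 10 to 15 and 27 in pachytene spermatocytes and from 20 and 15 to 52 and 4 in round spermatids.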

How the data were processed

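The 24 arrays were used as deposited: log2 signals per probe set, 1 array per rat and cell type, with the log base inferred from the range of values. The tool behind the probe summary was not given in the sources used here. Germ cells came from an enzymatic digest and a STAPUT gradient, per the labels' protocols. R 4.3.3 and limma 3.58.1 (lmFit, eBayes) fitted 31042 probe sets (57 array controls were dropped) with Benjamini-Hochberg adjustment and a threshold of 0.05. Age was tested within each cell type after quantile normalization of its 12 arrays. Where both cell types entered, an offset of 84.51 was added to linear pachytene values so that 45 array controls matched (mean gap 0.61 ± 0.77 before, 0.00 ± 0.17 after; SD over controls), and the 24 arrays were quantile normalized and fitted as 4 group means. Precision rests on 6 rats per group.

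Genes were named by platform annotation, and all 85 were found in RefSeq. Values by array are given, in each subfamily, for the 2 largest differences in each direction between cell types and for the smallest p in each direction for age and for the difference, and textbook members and up to 3 genes of each pathway list are named. Other genes are named where subfamilies, partners, probe sets or scalings are compared, and were chosen after their values were seen. The members, the gene lists (6 pathway and 9 marker lists) and the tests were chosen with earlier results of these data known. Odf2, Mybl1 and Foxj1 are in 2 lists each, and Ift22 is both a member and in the BBSome list. Alternatives were median centring, the deposited scale, a filter on the 40% dimmest probe sets, trend and robust eBayes, probe sets without _a_at, _s_at or _x_at endings, the mean over probe sets, young rats 1, 10 and 11 left out, each rat left out, replicate blocks, each age alone and no offset. Doubling the offset was added after seeing the data. The scripts were tested on simulated data.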

Additional observations from a re-analysis of the deposited data

Results flagged for a closer look

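The genes picked by rule for values by array were examined within each group, and the other genes named above were not. In 152 such sets of 6 arrays, 9 held a rat far from the other 5, where chance flags about 1 in 20. In young pachytene spermatocytes these were Bbs12 in rat 10 (8.63, others 9.12 to 9.31), Cfap410 in rat 1 (8.97, others 9.62 to 10) and Cep85 in rat 1 (11.27, others 11.64 to 11.75). In aged pachytene spermatocytes rat 2 stood apart for Cfap100 (8.18, others 7.54 to 7.74), Spag4 (11.37, others 10.55 to 10.82) and Cfap20dc (11.43, others 11.1 to 11.16). In young round spermatids rat 10 stood apart for Ift70a1 (9.72, others 10.04 to 10.24), Cep290 (8.41, others 8.76 to 8.94) and Cep76 (9.36, others 8.85 to 9.01). All are log2 signals within a cell type.

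For 12 of 85 genes the age change differed between cell types by limma's test of the difference (adjusted p below the threshold). That count is near the share over all probe sets (13%) and with 1 probe set per gene (16.2%). None of the 12 held under all 3 scalings. The log2 change in round spermatids minus that in pachytene spermatocytes was 1.2 for Cep295nl, 1.14 for Cfap276, 1.13 for Cfap90, 0.39 for Cfap144 and 0.25 for Ift88. It was -0.59 for Rsph6a, -0.52 for Cep76, -0.35 for Cep250, -0.31 for Bbs12, -0.31 for Cep95, -0.25 for Ift172 and -0.09 for Cep19.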

How the results depend on the processing

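Between cell types the count of called genes stayed at 75 to 85 under every alternative run, and at 79 to 82 with each rat left out; the split of 44 higher and 38 lower became 36 and 42 with median centring or on the deposited scale. The age counts depended on the setting. In every comparison the share of all probe sets called is not given for the alternatives. In pachytene spermatocytes 37 genes became 58 with median centring, 19 without young rats 1, 10 and 11, and 25 to 43 with 1 rat left out, and the deposited scale (42) turned the split from 27 higher and 10 lower to 15 and 27. In round spermatids 35 became 18 with median centring, 56 on the deposited scale, 13 without those 3 rats, and 21 to 44 with 1 rat left out: 22 without aged rat 9 and 21 without aged rat 10. For the difference 12 became 45 on the deposited scale, 7 without the 3 rats and 3 to 16 with 1 rat left out. It was 7 without young rat 1 or aged rat 10, 5 without young rat 10, young rat 11 or aged rat 3, and 3 without aged rat 5, aged rat 8 or aged rat 9. The causes were not tested. On the deposited scale Rsph3 in round spermatids turned to 0.005402 and the difference of Bbs12 to 0.2075.

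With a replicate block over the numbers 2, 3 and 10, which young and aged groups share but which come from different rats, 0 genes were called in pachytene and 0 in round spermatids by limma (8 and 6 at an unadjusted p below 0.05); a rat with a block of its own adds nothing to the estimate, so it rests on 3 pairs. Same-numbered rats deviated together at -0.74 to 0.08. Both fractions of a rat correlated at -0.08 to 0.38 in deviations from group means, and a rat's own partner was its best match for 6 of 12 rats. With the rat as a random block the counts were 82 and 15, and as a fixed block 82 between cell types. Precision is limited by 6 rats per group and, for dim probe sets, by the higher background of the round spermatid arrays.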
